A study of Mus musculus with 22 samples.

Results

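The late course of ureteral obstruction was examined in obstructed mouse kidneys alone, by setting the 4 kidneys taken 9 days after ligation against the 3 taken at day 5. These 7 arrays are all the arrays of the 2 time points whose titles mark an obstructed animal, out of 22 arrays in the series. Mice of strain C57BL/6 had the left ureter tied off, so that urine could not leave the kidney. The sham mice had the ureter dissected but not tied. The labels name no transgene, deletion or drug for any group, and they state neither age nor sex. RNA of each kidney, labelled with Cy5, was hybridised with a mouse universal reference RNA, labelled with Cy3, so each value is a kidney over reference ratio, given below on the log2 scale. Arrays of 2 sham animals at day 5 and 2 at day 9, and of 6 obstructed and 4 sham animals of days 1 and 2, served for the comparisons that the 7 arrays cannot give. They also entered the estimate of the spread between replicates.

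When urine flow is blocked, pressure and stretch injure the tubules, leukocytes enter the interstitium, and fibroblasts and pericytes turn into matrix-producing myofibroblasts. The tubule cells, which depend on mitochondrial oxidation of fatty acids for their transport work, lose their differentiated program as scar replaces them. The comparison of day 9 with day 5 asks what still moves once this response is under way. In whole kidney RNA, fewer cells of a type and less RNA per cell cannot be told apart.

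A ratio was measured at 35747 to 39871 of 45220 spots per array over the series, and 17039 genes were tested. With arrays, precision is set by how many there are, and the median standard error of the day 9 minus day 5 difference was 0.17 on the log2 scale. S21L of day 5 and S09L of day 9 stood apart from the other obstructed arrays. S21L correlated with the other 6 arrays at 0.906 to 0.923 over genes. S09L had the lowest number of measured spots, 35747. Xist, the RNA that silences one X chromosome in female cells, lay above the reference on S21L, S34L, S35L and S36L, and far below it on S31L, S19L and S09L. The Y-linked genes Eif2s3y and Uty showed the opposite pattern on every one of these 7 arrays. Arrays with Xist above the reference, called Xist-positive below, made up 1 of 3 at day 5 and 3 of 4 at day 9. The image folders named in the labels, the only batch hint, put S19L and S21L of day 5 in folder 1 and the other 5 arrays in folder 2. Values are therefore also given within each of these sets below, where S21L is the only Xist-positive array of day 5, S09L the only Xist-negative array of day 9 and S31L the only day 5 array of folder 2. Nothing in the labels says how animals shared cages or operating days, so p-values measure the spread between samples only. Except where stated, that spread was estimated within all groups of the series, sham kidneys and days 1 and 2 included. The p-values and standard errors are thus not set by the spread of the 7 obstructed arrays alone.

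By limma with Benjamini-Hochberg adjustment, 14 genes differed between day 9 and day 5 at an adjusted p under 0.05, which is 0.0822% of the genes tested. Of these, 5 rose (0.0293%) and 9 fell (0.0528%). The genes that rose were Ltbp2, Plekhs1, Amer2, Cxcr4 and the unnamed locus 1600027J07Rik. Those that fell were Cyp4a14 and Cyp4a31, Gsta1 and Gsta2, Aqp2, Serpina6, Defb19, Gpat3 and Cox5a, among them genes of fatty acid hydroxylation, detoxification, water reabsorption and respiration. All 14 had day 9 and day 5 arrays that did not overlap. At an unadjusted p under 0.05 there were 2314 genes. Without subtraction of the array medians the split was 9 higher and 9 lower, and after quantile normalization 23 higher and 19 lower, so the balance of rises and falls depends on the scaling. The count rose to 432 without S09L, and it was 0 without S35L, 1 without S21L, 2 without S34L, 3 without S31L and 4 without S36L. It was also 0 when the 7 arrays were fitted by themselves, with 2233 genes at an unadjusted p under 0.05.

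**Figure D1:**
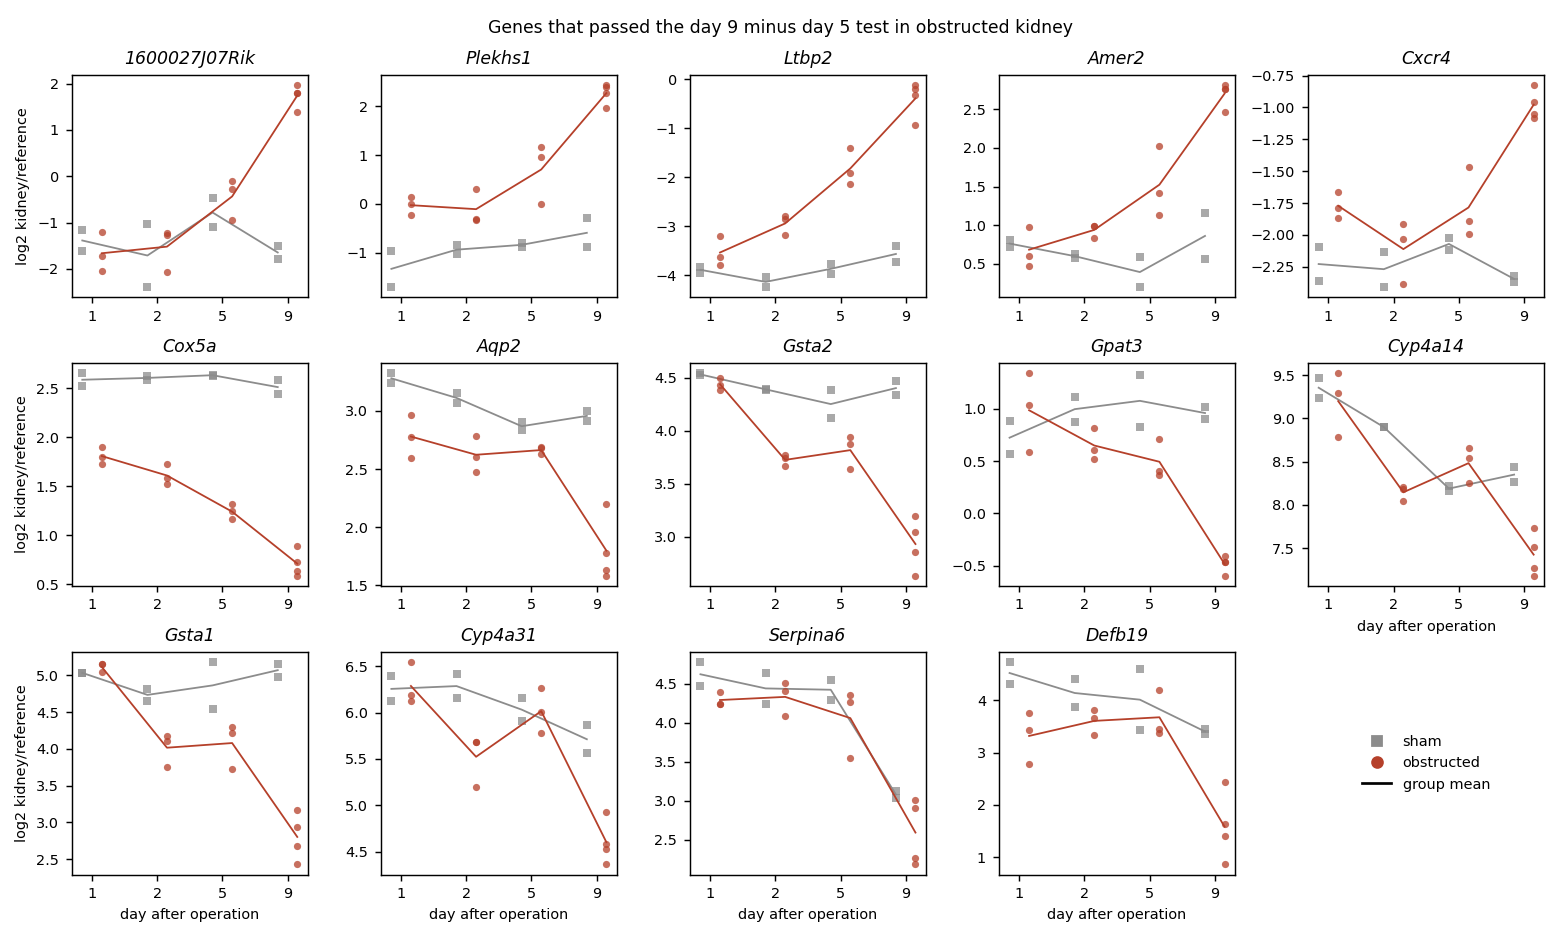
Log2 kidney over reference ratio (vertical axis, its own range in each panel) of the 14 genes that passed the day 9 minus day 5 test, by day after operation (horizontal axis, days evenly spaced). Red circles are obstructed and grey squares sham kidneys, lines join group means, and in every panel the 4 obstructed day 9 points lie beyond the 3 of day 5.

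Among the genes that rose, Ltbp2 encodes a microfibril protein of the latent TGF-beta binding family that is laid down with elastic fibres. Its log2 ratios were -1.92, -1.41 and -2.14 on the day 5 arrays S31L, S19L and S21L, and -0.33, -0.93, -0.20 and -0.11 on the day 9 arrays S36L, S09L, S34L and S35L. All 4 day 9 values lay above the 3 of day 5, with S09L the lowest of them. The difference was 1.43 ± 0.21 (SE), or 2.70-fold, with an adjusted p of 0.0202 in the limma fit. The level had been -3.54 at day 1 and -2.95 at day 2 in obstructed kidneys, and stood at -3.87 and -3.57 in sham kidneys of days 5 and 9. The relatives Ltbp1, Ltbp3 and Ltbp4, chosen after values were seen, had differences of -0.01 ± 0.19, 0.22 ± 0.13 and 0.47 ± 0.19, and none passed. The 2 probes of Ltbp1 went opposite ways, 0.42 and -0.44. Ltbp1 is the family member best known for holding latent TGF-beta in the matrix.

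Plekhs1, which encodes a protein with a pleckstrin homology domain, had log2 ratios of 0.95, 1.16 and 0.01 at day 5 and of 1.96, 2.29, 2.45 and 2.40 at day 9, in the same order of arrays. S21L was the lowest of the 7 and the day 9 arrays lay close together. The difference was 1.57 ± 0.26 (adjusted p = 0.0393, limma), although the 2 probes of the gene gave 2.03 and 1.10 and only the first passed when probes were tested singly. Amer2, whose product binds the tumour suppressor APC and dampens Wnt signalling, had log2 ratios of 1.42, 2.02 and 1.13 at day 5. At day 9 they were 2.76, 2.77, 2.47 and 2.82, a difference of 1.18 ± 0.20 (adjusted p = 0.0393, limma), with 1.62 and 0.74 from its 2 probes, neither of which passed when probes were tested singly (adjusted p = 0.104 and 0.388).

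Cxcr4, the receptor through which the chemokine CXCL12 guides leukocytes, had log2 ratios of -1.47, -1.89 and -1.99 at day 5 and of -0.82, -1.08, -1.05 and -0.96 at day 9. The lowest day 9 array, S09L, lay above the highest day 5 array, S31L. The difference was 0.81 ± 0.14, or 1.75-fold (adjusted p = 0.0421, limma), with 1.23 and 0.39 from its 2 probes. Only the first of these probes passed when tested singly. The ligand Cxcl12 and its other receptor Ackr3 had differences of 0.21 ± 0.29 and 0.27 ± 0.21 (adjusted p = 0.799 and 0.606, limma). The locus 1600027J07Rik, named here after its values were seen because the naming rule passed over clone names, had the largest difference among the 14 called genes, 2.18 ± 0.32 (adjusted p = 0.0202, limma). Its log2 ratios were -0.10, -0.27 and -0.93 at day 5 and 1.39, 1.98, 1.79 and 1.80 at day 9, against -0.78 and -1.64 in sham kidneys of the same days.

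Among the genes that fell, Cyp4a14 and Cyp4a31 belong to the cytochrome P450 family that hydroxylates the far end of fatty acids, and Cyp4a genes are classic targets of the fatty acid sensor PPAR alpha. Cyp4a31 had log2 ratios of 6.26, 6.01 and 5.78 at day 5 and of 4.93, 4.59, 4.36 and 4.53 at day 9. No day 9 array reached the lowest day 5 array. The difference was -1.41 ± 0.17, or 2.67-fold lower, with the smallest adjusted p of the comparison, 0.0102 (limma). Its probes gave -1.24 and -1.59, and only the first passed when probes were tested singly. Cyp4a14 had log2 ratios of 8.66, 8.54 and 8.25 at day 5 and of 7.51, 7.73, 7.18 and 7.28 at day 9, a difference of -1.06 ± 0.16 (adjusted p = 0.0214, limma). In sham kidneys Cyp4a14 stood at 8.19 and 8.35 on these days. Obstructed minus sham was 0.29 at day 5 (adjusted p = 0.302, limma) and -0.92 at day 9 (adjusted p = 0.000958, limma), beside 26.1% and 41.3% of all genes called on those days, and both share their obstructed arrays with the day 9 minus day 5 difference. The family members Cyp4a10 and Cyp4a12a, chosen after values were seen, had differences of -1.01 ± 0.20 (adjusted p = 0.0672, limma) and -0.24 ± 0.34, and did not pass. Some Cyp4a genes are close copies of one another, so their probes may read one another's RNA and the values of single members are uncertain. How far the probes do so was not tested.

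Gsta1 and Gsta2 encode alpha-class glutathione transferases, which couple glutathione to lipid peroxides and foreign compounds. Gsta1 had log2 ratios of 4.30, 3.73 and 4.21 at day 5 and of 3.17, 2.94, 2.43 and 2.68 at day 9, and fell by 1.28 ± 0.19 on the log2 scale (adjusted p = 0.0202, limma). Gsta2 had log2 ratios of 3.94, 3.64 and 3.87 at day 5 and of 3.20, 3.05, 2.63 and 2.85 at day 9, and fell by 0.88 ± 0.12 (adjusted p = 0.0163, limma). The 7 arrays came in the same order for both genes, with S31L highest and S34L lowest. Each gene has 1 probe, the coding sequences are near-identical copies, and how far each probe reads the other gene's RNA was not tested. Gsta3 and Gsta4, named after values were seen, had differences of -0.25 ± 0.14 and 0.01 ± 0.31 and did not pass.

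The promoters of this pair are shown because the genes moved together. Both come from RefSeq on GRCm38.p6 and span 250 bases before to 50 bases after the start of the gene, Gsta1 at chr9:78230419-78230718 on the plus strand and Gsta2 at chr9:78347096-78347395 on the minus strand. Capitals mark runs of at least 15 bases found in both, 93 bases in 4 runs.
Gsta1: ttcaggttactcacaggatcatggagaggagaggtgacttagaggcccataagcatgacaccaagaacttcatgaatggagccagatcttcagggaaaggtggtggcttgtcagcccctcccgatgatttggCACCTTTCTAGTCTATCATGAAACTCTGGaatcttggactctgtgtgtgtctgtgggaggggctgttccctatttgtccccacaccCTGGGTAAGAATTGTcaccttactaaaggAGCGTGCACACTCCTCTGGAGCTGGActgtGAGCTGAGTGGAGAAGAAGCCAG
Gsta2: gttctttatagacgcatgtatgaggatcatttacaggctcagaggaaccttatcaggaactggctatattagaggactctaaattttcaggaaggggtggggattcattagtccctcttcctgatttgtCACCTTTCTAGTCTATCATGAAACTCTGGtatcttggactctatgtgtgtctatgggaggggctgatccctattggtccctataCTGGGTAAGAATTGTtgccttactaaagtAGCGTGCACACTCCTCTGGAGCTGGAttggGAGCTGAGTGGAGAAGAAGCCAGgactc
A global alignment matched 230 of 311 columns (74.0%), against at most 44.8% for the other pairs among the 10 called genes with a promoter in the table. On both strands 6 motifs were searched in the 10 promoters: TGACGTCA (the cyclic AMP response element), TGANTCA (AP-1), AGGTCA (the nuclear receptor core repeat), TGACNNNGC (the antioxidant response element), and the NRF1 and HNF1 motifs. The antioxidant response element, known for driving alpha-class transferases, was found in neither of the 2 promoters, while 12.5% of all 27025 promoters of this length hold it. The 1 match was the NRF1 motif in the Cxcr4 promoter, a motif held by 4.78% of promoters. A match or its absence in this window is a description of the letters only.

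Aqp2, the water channel that vasopressin inserts into the apical membrane of collecting duct principal cells, had log2 ratios of 2.63, 2.68 and 2.69 at day 5. At day 9 they were 1.78, 2.20, 1.58 and 1.63. The day 5 arrays were nearly equal, and the highest day 9 array was S09L. Aqp2 fell by 0.87 ± 0.13, or 1.82-fold (adjusted p = 0.0214, limma). Sham kidneys stood at 2.87 and 2.96 on the same days. Obstructed minus sham was -0.20 at day 5 (adjusted p = 0.380, limma) and -1.16 at day 9 (adjusted p = 2.34e-05, limma), and both share arrays with the day 9 minus day 5 difference.

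The other aquaporins did not pass, and all of them but Aqp3 were chosen after values were seen. Aqp11, an intracellular channel of the proximal tubule, had log2 ratios of 2.06, 2.07 and 2.13 at day 5 and of 1.20, 1.79, 1.02 and 1.13 at day 9, a difference of -0.80 ± 0.16 with an adjusted p of 0.0672 (limma). Aqp8 went the other way in value, from -0.70, -1.79 and -1.36 to -0.06, -0.15, 0.35 and 0.15, with a difference of 1.35 ± 0.27 and the same adjusted p of 0.0672. In sham kidneys Aqp8 stood at -0.71 at day 5 and 0.31 at day 9. Aqp3, the exit channel of the principal cell, had a difference of -0.69 ± 0.22 (adjusted p = 0.203, limma) with no overlap between the days. Aqp1, the channel of the proximal tubule and thin limb, had one of -0.50 ± 0.44 and overlapping arrays.

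Serpina6, which encodes the corticosteroid-binding globulin of plasma, had log2 ratios of 4.36, 3.55 and 4.27 at day 5 and of 2.26, 3.01, 2.18 and 2.91 at day 9. It fell by 1.47 ± 0.22 (adjusted p = 0.0214, limma). Sham kidneys gave a similar pair of levels, 4.42 at day 5 and 3.08 at day 9, so the difference of the obstructed from the sham change was -0.12 (adjusted p = 0.969, limma). Defb19, a beta-defensin gene, had log2 ratios of 3.45, 3.38 and 4.19 at day 5 and of 1.63, 2.43, 0.86 and 1.41 at day 9, and fell by 2.09 ± 0.36 (adjusted p = 0.0393, limma). Its 2 probes gave -2.83 and -1.36, and only the first passed when probes were tested singly. Gpat3, a glycerol-3-phosphate acyltransferase of triglyceride synthesis, had log2 ratios of 0.40, 0.36 and 0.71 at day 5 and of -0.46, -0.41, -0.46 and -0.59 at day 9, and fell by 0.97 ± 0.17 (adjusted p = 0.0393, limma). The Gpat3 probes gave -1.16 and -0.78, and again only the first passed singly.

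Cox5a, a nuclear-encoded subunit of cytochrome c oxidase, had the smallest difference of the 14 called genes. Its log2 ratios were 1.31, 1.16 and 1.24 at day 5 and 0.73, 0.89, 0.59 and 0.63 at day 9. It fell by 0.53 ± 0.09, or 1.44-fold (adjusted p = 0.0393, limma). It passed under 13 of 37 alternatives, the fewest of the 14 called genes, and its 1 probe did not pass when probes were tested singly (adjusted p = 0.0715). Obstructed kidneys had stood at 1.81 on day 1 and 1.61 on day 2, and sham kidneys at 2.63 and 2.51 on days 5 and 9. The subunits Cox5b, Cox8a, Cox6c, Cox4i1 and Cox7b, all but the first chosen after values were seen, had differences from -0.47 to -0.25 and none passed.

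In sham kidneys, by contrast, the same 2 days were compared with 2 arrays each. The limma fit called 0 genes there, with 851 at an unadjusted p under 0.05 and a smallest adjusted p of 0.389. The test of whether the obstructed change differed from the sham change also called 0 of 17039 genes (1226 at an unadjusted p under 0.05, smallest adjusted p 0.214). For the 14 called genes the adjusted p-values of this test were 0.214 to 0.969. The day 9 minus day 5 differences in obstructed kidneys were thus not shown to differ from those in sham kidneys. Leaving out single arrays gave at most 10 genes for this test, without the sham array S33L.

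Because the arrays of the 14 called genes did not overlap, their direction within any subset of arrays was fixed by the choice of genes, and only the sizes are given. For the 5 genes that rose the differences were 1.05 to 2.60 between the Xist-positive arrays and 0.60 to 2.16 between the Xist-negative arrays. For the 9 that fell they were -2.89 to -0.59 and -1.55 to -0.35. With the Xist pattern as a term in the fit, added after seeing the data, 13 genes passed, 10 of them among the 14. With the image folder as a term 2 passed, of which Cyp4a31 was 1 of the 14 (adjusted p = 0.0344, limma), and with both terms 0 passed.

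Beyond the genes that passed, 930 of the 16423 genes measured on all 7 arrays had every day 9 array above every day 5 array (5.66%), and 1085 had every one below (6.61%). Gene lists of kidney cell types and pathways are described by the median difference, which was -0.03 over all genes tested, and many also by such counts. Of the 17039 genes tested, 7696 had a difference above 0 and 9338 one below 0. The plot of differences by list shows each member.

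**Figure D2:**
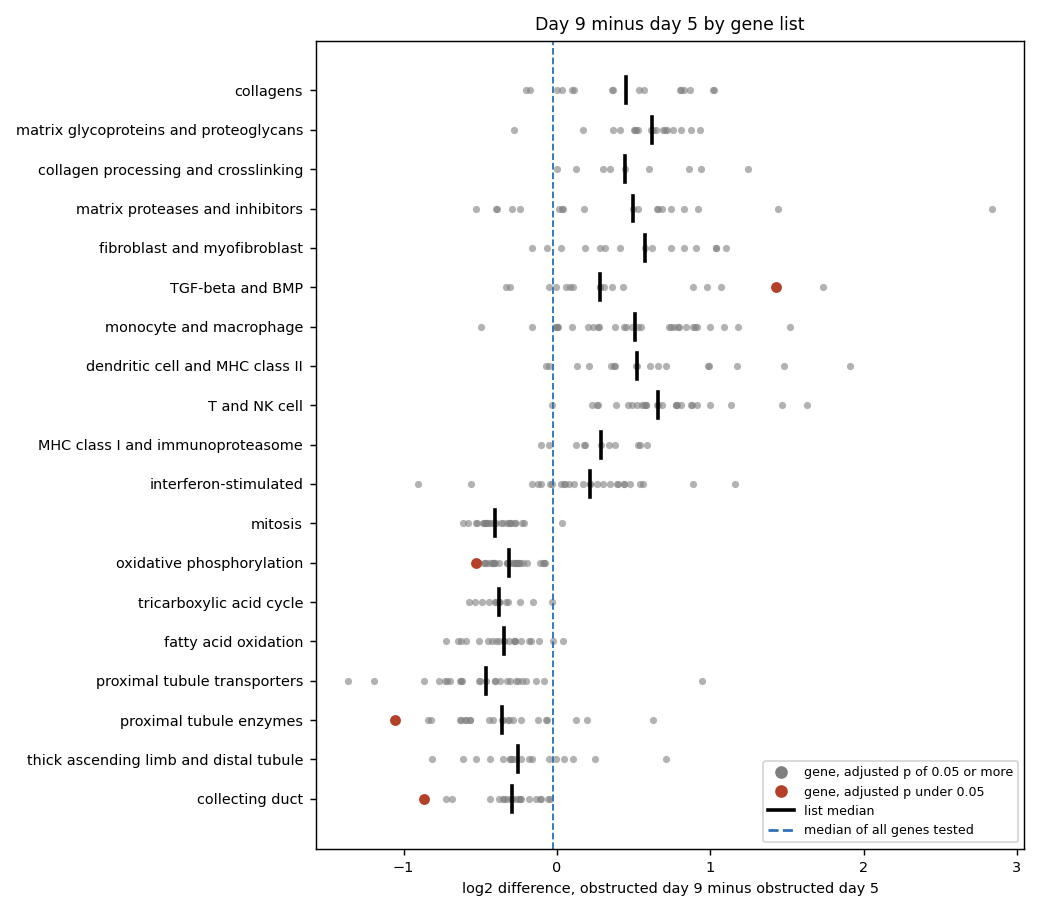
Log2 difference, obstructed day 9 minus obstructed day 5 (horizontal axis), of every tested member of 19 gene lists (rows). Red points passed the limma test and grey points did not, black bars are list medians, and the dashed line is the median of all genes tested, -0.03, with for example the collagen median at 0.45 to its right and the collecting duct median at -0.29 to its left.

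Most genes of the extracellular matrix lists had higher values at day 9 than at day 5, and 0 passed, as Ltbp2 was counted with the TGF-beta genes. Of 16 collagens 0 passed, 13 lay above 0, 1 lay wholly above at day 9 and the median difference was 0.45. Of 18 matrix glycoproteins and proteoglycans 0 passed, 17 lay above 0, 3 lay wholly above at day 9 and the median was 0.62. Of 9 genes that process and crosslink collagen 0 passed and the median was 0.45, and of 15 fibroblast and myofibroblast genes 0 passed, 7 did not overlap with day 9 above and the median was 0.57. Col1a1, the main chain of fibrillar collagen, had log2 ratios of 1.15, 1.56 and 0.25 at day 5 and of 2.04, 1.25, 2.32 and 2.38 at day 9. The day 9 array S09L lay below the day 5 array S19L, and the difference of 1.02 ± 0.54 did not pass (adjusted p = 0.427, limma).

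Acta2, the smooth muscle actin that marks myofibroblasts, had log2 ratios of 0.11, 0.82 and 0.25 at day 5 and of 1.23, 0.91, 1.47 and 1.59 at day 9. The days did not overlap, and the difference was 0.91 ± 0.22 (adjusted p = 0.121, limma). Tagln, another actin-binding protein of contractile cells, had a difference of 1.04 ± 0.27, and Thy1, a surface glycoprotein of fibroblasts and T cells, one of 1.11 ± 0.29 (both adjusted p = 0.138, limma). Fn1, which encodes fibronectin, had a difference of 0.64 ± 0.22 and Eln, which encodes elastin, one of 0.93 ± 0.32, both with overlapping arrays. P4ha3, a prolyl hydroxylase that readies collagen chains for folding, had log2 ratios of -1.84, -1.53 and -1.16 at day 5 and of -0.20, -0.96, -0.05 and 0.15 at day 9, with a difference of 1.24 ± 0.38 (adjusted p = 0.185, limma).

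Of 19 matrix proteases and inhibitors 0 passed, 6 lay wholly above at day 9 and 1 wholly below, and the median was 0.50. Mmp12, the elastase of macrophages, had log2 ratios of -2.68, -0.92 and -1.71 at day 5 and of 1.26, 0.76, 0.99 and 1.28 at day 9. All 4 day 9 arrays lay above 0 and all 3 day 5 arrays below it. Its difference of 2.84 ± 0.58 was larger than that of any called gene that rose and did not pass (adjusted p = 0.0750, limma). Mmp14 and Mmp2, the membrane-bound protease and the gelatinase it activates, had differences of 0.83 ± 0.25 and 0.65 ± 0.18, and Mmp3 one of 1.44 ± 0.47, with no overlap in any of the 3.

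Among 17 genes of TGF-beta and BMP signalling 1 passed, Ltbp2, and the median was 0.28. Ccn2, a matricellular protein induced by TGF-beta, had log2 ratios of 1.24, 1.74 and 0.58 at day 5 and of 3.67, 1.35, 3.31 and 3.35 at day 9. S09L lay within the range of day 5 and the other 3 day 9 arrays far above it, with a difference of 1.73 ± 0.50 (adjusted p = 0.176, limma). Inhba, the activin subunit, had a difference of 1.07 ± 0.31 with no overlap, and Tgfb3 one of 0.98 ± 0.28. Tgfb1, the main fibrogenic ligand, had one of 0.36 ± 0.18 (adjusted p = 0.406, limma). S21L had the lowest mean of the 7 arrays for each of these 6 lists, and without it the medians were 0.30 for collagens, 0.41 for matrix glycoproteins, 0.19 for collagen crosslinking, 0.14 for matrix proteases, 0.33 for fibroblast genes and 0.14 for TGF-beta genes. Between the Xist-negative arrays alone the mean of the collagens differed by -0.10, and between the Xist-positive arrays by 1.06.

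Most macrophage, dendritic cell, and T and NK cell genes also had higher values at day 9, and 0 members of these lists passed. Of 15 B and plasma cell genes 0 passed and 13 lay above 0, with a median of 0.16 and Pax5 lowest at -1.07, without a measured ratio on S09L. The median of the neutrophil list was 0.11. Of 30 monocyte and macrophage genes 27 lay above 0, 10 did not overlap and the median was 0.51. Without S21L this median was 0.23, and between the sham days it was 0.24. Ctss, the lysosomal protease that trims the class II chaperone, had log2 ratios of 1.20, 1.33 and 0.46 at day 5 and of 1.91, 1.76, 2.26 and 2.42 at day 9, a difference of 1.09 ± 0.37 (adjusted p = 0.218, limma). Clec7a, the beta-glucan receptor dectin-1, had one of 1.52 ± 0.50, Mpeg1, the macrophage pore-forming protein, one of 0.99 ± 0.26, and Tyrobp, a signalling adaptor of myeloid receptors, one of 0.79 ± 0.25. In all 4 the day 9 arrays lay above day 5.

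Of 17 dendritic cell and MHC class II genes 9 did not overlap with day 9 above, and the median was 0.52. Between the sham days this median was 0.38. Cd74, the class II invariant chain, had log2 ratios of 2.03, 2.36 and 1.60 at day 5 and of 2.91, 3.10, 3.01 and 2.94 at day 9. The day 9 arrays lay close together and above all of day 5, and the difference was 0.99 ± 0.27 (adjusted p = 0.152, limma). Its sham level was -0.36 at day 5 and 0.66 at day 9. Ccr7, which leads dendritic cells and naive T cells to lymphatics, had a difference of 1.48 ± 0.39 and H2-Oa, a class II-like chain of antigen-presenting cells, one of 1.17 ± 0.31, both without overlap.

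Of 26 T and NK cell genes 25 lay above 0 and 5 did not overlap, with a median of 0.66, and the same genes had a median of 0.49 between the sham days. Klrk1, the activating receptor NKG2D, had log2 ratios of 1.04, 1.64 and 0.23 at day 5 and of 2.46, 2.54, 1.96 and 2.79 at day 9, with a difference of 1.47 ± 0.41 (adjusted p = 0.161, limma). Foxp3, the factor of regulatory T cells, had a difference of 1.63 ± 0.55 without a measured ratio on S09L. Cd3e, the T cell receptor chain, had one of 0.26 ± 0.19. The means of the T and NK cell list and of the dendritic cell list were higher at day 9 both between the Xist-positive arrays (0.58 and 0.57) and between the Xist-negative arrays (0.92 and 0.67).

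Leukocyte adhesion gave a divided picture, with 0 of 8 genes passing. The integrin chain genes Itgb2 and Itga4 had differences of 0.69 ± 0.15 and 0.63 ± 0.15, and Selplg, the selectin ligand of leukocytes, one of 0.78 ± 0.18, with no overlap in all 3. The single probes of Itga4 differed in size and sign, at 1.37, 1.20, 0.88, 0.74, 0.07 and -0.45. Vcam1, the endothelial and tubular ligand of Itga4, had the opposite sign, with log2 ratios of 0.77, 0.47 and 1.23 at day 5 and of 0.13, 0.64, -0.58 and -0.17 at day 9. Its difference was -0.82 ± 0.31 (adjusted p = 0.260, limma). Cxcl10, an interferon-induced chemokine, had one of -0.91 ± 0.38, while the median of 27 interferon-stimulated genes was 0.21 and that of 11 MHC class I genes 0.29. The interferon median was 0.05 without S21L and 0.34 without S19L, and the MHC class I median 0.17 without S31L and 0.46 without S19L. Between the sham days the interferon median was -0.23 and the MHC class I median 0.21.

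Of 20 chemokines 0 passed and the median was 0.28, or 0.14 without S21L and 0.08 within folder 2. Cxcl5, which attracts neutrophils, had log2 ratios of -3.16, -2.92 and -4.57 at day 5 and of -1.07, -1.18, -1.21 and -1.09 at day 9, a difference of 2.41 ± 0.46 (adjusted p = 0.0672, limma). Ccl20, the ligand of CCR6, and Ccl17, a T cell chemokine of dendritic cells, had differences of 1.70 ± 0.79 and 1.50 ± 0.45, and both lay wholly above day 5. Ccl2, the monocyte chemokine, had one of -0.27 ± 0.22. Of 10 neutrophil genes 0 passed and the members diverged: Ltf, which encodes lactoferrin, had a difference of 1.95 ± 0.42 and Retnlg, a resistin-like protein of neutrophils, one of -2.33 ± 0.84, each with no overlap. Retnlg stood at 5.34, 4.82 and 4.93 at day 5 and at 2.64, 2.01, 2.16 and 4.02 at day 9.

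**Figure D3:**
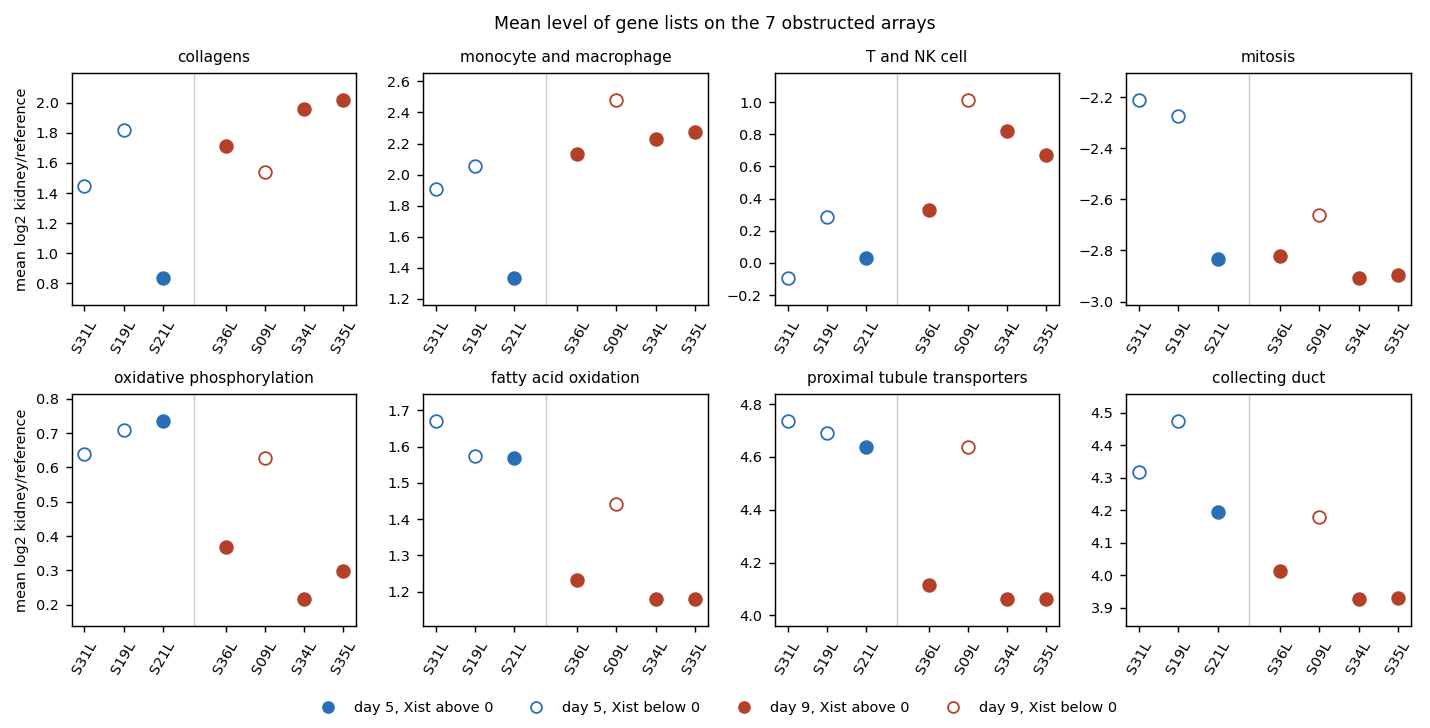
Mean log2 kidney over reference ratio (vertical axis, its own range in each panel, not starting at 0) of 8 gene lists on each of the 7 obstructed arrays (horizontal axis). Blue is day 5 and red day 9, filled points are arrays with Xist above 0 and open points below 0, and S09L, the open day 9 point, lies near day 5 for the mitochondrial and proximal tubule lists and highest of all 7 for the macrophage and T cell lists.

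Most mitochondrial genes had lower values at day 9. All 30 genes of oxidative phosphorylation lay below 0, with a median of -0.31, and 1 passed, Cox5a. Day 9 lay wholly below day 5 for 8 of them. Between the sham days the median of this list was -0.11. Uqcrc2, a core subunit of complex III, had log2 ratios of 0.99, 1.04 and 1.16 at day 5 and of 0.58, 0.75, 0.54 and 0.51 at day 9, a difference of -0.47 ± 0.09 (adjusted p = 0.0728, limma). Ndufa9, a complex I subunit, had one of -0.42 ± 0.11, with S09L at 0.68 and the other 3 day 9 arrays at 0.20 to 0.25. All 14 genes of the tricarboxylic acid cycle lay below 0, with a median of -0.38 and 0 passing. Of these, 2 lay wholly below at day 9, and the median between the sham days was -0.18. Suclg1, a succinyl-CoA ligase subunit, had a difference of -0.58 ± 0.13 (adjusted p = 0.108, limma).

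Of 21 fatty acid oxidation genes 20 lay below 0 and 12 did not overlap, with a median of -0.34 and 0 passing. Between the sham days this median was 0.10. Ehhadh and Acaa1b, the peroxisomal bifunctional enzyme and thiolase, had differences of -0.62 ± 0.16 and -0.60 ± 0.15. Etfa and Etfb, the electron carrier from acyl-CoA dehydrogenases to the respiratory chain, had differences of -0.40 ± 0.10 and -0.51 ± 0.15. For Acaa1b the day 9 array S09L stood at 3.24, close to the 3.36 to 3.40 of day 5, and the other 3 at 2.60 to 2.68. The mean of the tricarboxylic acid list differed by -0.59 between the Xist-positive arrays and by 0.07 between the Xist-negative ones, that of oxidative phosphorylation by -0.44 and -0.05, and that of fatty acid oxidation by -0.37 and -0.18. With S09L left out the medians were -0.39 for oxidative phosphorylation, -0.50 for the tricarboxylic acid cycle and -0.36 for fatty acid oxidation.

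The nephron segments had lower values too. Of 25 proximal tubule transporters 24 lay below 0 and 5 wholly below at day 9, with a median of -0.46 and 0 passing. Slco1a1, an organic anion transporter, had log2 ratios of 7.29, 7.26 and 7.16 at day 5 and of 6.75, 5.67, 5.67 and 6.09 at day 9, with a difference of -1.19 ± 0.32 (adjusted p = 0.140, limma). Slc3a1, the heavy chain of the cystine transporter, had one of -0.51 ± 0.13 and Slc34a1, the sodium phosphate cotransporter, one of -0.31 ± 0.14. Of 23 proximal tubule enzymes 1 passed, Cyp4a14, and 1 lay wholly below at day 9. The median of the enzymes was -0.36, or -0.55 without S21L and -0.21 with the Xist pattern as a term. Lrp2, the endocytic receptor megalin, had a difference of -0.63 ± 0.21 (adjusted p = 0.215, limma). Without S09L the median of the transporters was -0.63. Between the Xist-negative arrays, where S09L is the only day 9 array, the means of the transporters and enzymes differed by -0.08 and 0.04, against -0.56 and -0.35 between the Xist-positive arrays.

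All 21 collecting duct genes lay below 0 and 3 wholly below at day 9, with a median of -0.29, and 1 passed, Aqp2. Car2, the cytosolic carbonic anhydrase of intercalated cells, and Atp6v0a4, a subunit of their proton pump, had differences of -0.44 ± 0.13 and -0.38 ± 0.11. The mean of this list was lower at day 9 between the Xist-positive arrays (-0.24) and between the Xist-negative arrays (-0.22). Of 18 genes of the thick ascending limb and distal tubule 0 passed, 2 lay wholly below at day 9 and the median was -0.26. Slc12a1, the sodium potassium chloride cotransporter, had log2 ratios of 7.65, 7.24 and 8.16 at day 5 and of 6.65, 7.19, 6.93 and 6.69 at day 9, a difference of -0.82 ± 0.25 (adjusted p = 0.187, limma). Egf, which the distal tubule makes in abundance, had one of -0.62 ± 0.19, while Umod, which encodes uromodulin, had one of -0.18 ± 0.15 with overlapping arrays. The median of 9 podocyte genes was 0.11 and that of 18 endothelial genes 0.11, with 0 passing in either, and these medians ran from 0.06 without S21L to 0.20 without S19L and from -0.05 without S21L to 0.21 without S19L.

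Tubular injury markers were divided in sign. Of 22 such genes 0 passed and the median was 0.14, or -0.02 without S21L and 0.29 without S19L. Havcr1, which encodes the injury molecule KIM-1, had log2 ratios of 4.92, 4.89 and 3.14 at day 5 and of 4.35, 3.16, 4.49 and 4.12 at day 9, a difference of -0.29 ± 0.43. Lcn2, the siderophore carrier of injured tubules, stood at 3.95, 3.90 and 2.79 and then at 3.87, 3.67, 3.55 and 3.62, a difference of 0.13 ± 0.40. Krt20, an epithelial keratin, had a difference of -1.62 ± 0.64 with no overlap (adjusted p = 0.287, limma), and Anxa1, a phospholipid-binding protein that limits leukocyte entry, one of 1.00 ± 0.19 with no overlap (adjusted p = 0.0672, limma). Sox9, a factor of regenerating tubules, had one of 0.01 ± 0.44. The 95% interval of the Havcr1 difference ran from -1.21 to 0.63.

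Of 24 mitosis genes 23 lay below 0, with a median of -0.41 and 0 passing. Cdk1, the kinase that starts mitosis, had log2 ratios of -2.35, -2.03 and -2.31 at day 5 and of -2.43, -2.94, -2.45 and -2.55 at day 9, a difference of -0.36 ± 0.18. Its 2 probes gave -0.08 and -0.35 when tested singly. The gene value, which averages the probes measured on each array, lies beyond both. The mean of the list was -2.21 on S31L, -2.27 on S19L and -2.83 on S21L at day 5, and -2.91 to -2.66 at day 9, so S21L lay among the day 9 arrays. The sham median of the list was -0.60. In sham kidneys the mean of the list was -4.43 on S22L and -2.02 on S32L at day 5. It was -3.63 on S10L and -4.15 on S33L at day 9, both above S22L and below S32L. The obstructed median was -0.26 without S31L and -0.07 with the Xist pattern as a term. The 23 genes of DNA replication had a median of -0.07, which was 0.10 without S19L. Of 13 circadian clock genes 0 passed and the median was -0.33, against -0.41 between the sham days. The clock genes Per3, Per2 and Tef had differences of -1.01 ± 0.20, -0.65 ± 0.24 and -0.66 ± 0.23 with no overlap, and Arntl, which runs opposite to them over the day, had one of 0.71 ± 0.39. Per3 stood at -1.03 and -1.46 in sham kidneys of the 2 days. The hour at which kidneys were taken is not in the labels, and its part in these values was not tested.

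Markers of neighbouring tissue moved between single arrays. The mean of 5 fat cell genes ran from 4.48 to 5.84 at day 5 and from 4.51 to 5.47 at day 9, and all 6 tested members lay below 0, with 0 passing and a median of -0.88 to -0.04 when single arrays were left out. That of 5 adrenal genes ran from -0.14 to 1.72 and from 0.40 to 1.69. That of 11 urothelial genes ran from 1.52 to 2.02 and from 1.63 to 2.33. Their median difference was 0.37, or 0.21 without S31L, and 0.45 between the sham days. The part of these neighbouring tissues in the results was not tested.

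The kidneys of days 1 and 2 allowed the late difference to be read on genes sorted by an early difference between other arrays. The adjusted p-values of that sorting used the spread of all groups, the 7 late obstructed arrays included. The sorting was therefore not independent of these arrays, and how far this moved the counts below was not tested. Obstructed minus sham, averaged over days 1 and 2, called 2464 genes as higher (14.5%) and 2447 as lower (14.4%) by limma at an adjusted p under 0.05. The sham arrays S03R, S06R and S39R of these days carry the letter R, and all obstructed arrays the letter L. What the letters mean is not explained, and their part in this comparison was not tested. The genes that were higher early had a median day 9 minus day 5 difference of 0.06. In 352 of them every day 9 array lay above day 5 (14.3% of those measured on all 7 arrays) and in 111 every one lay below (4.52%). The genes that were lower early had a median of -0.17, with 375 wholly below (15.5%) and 43 wholly above (1.78%). The 12128 genes not called early had a median of -0.02, with 4.63% wholly above and 5.19% wholly below. The median of the genes higher early was 0.04 without S36L and 0.04 without S21L, and 0.03 within folder 2. With the Xist pattern and folder as terms the medians of the higher and lower classes were 0.0094 and -0.08. In sham kidneys the medians of the 3 classes were -0.03, 0.02 and -0.0017.

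**Figure D4:**
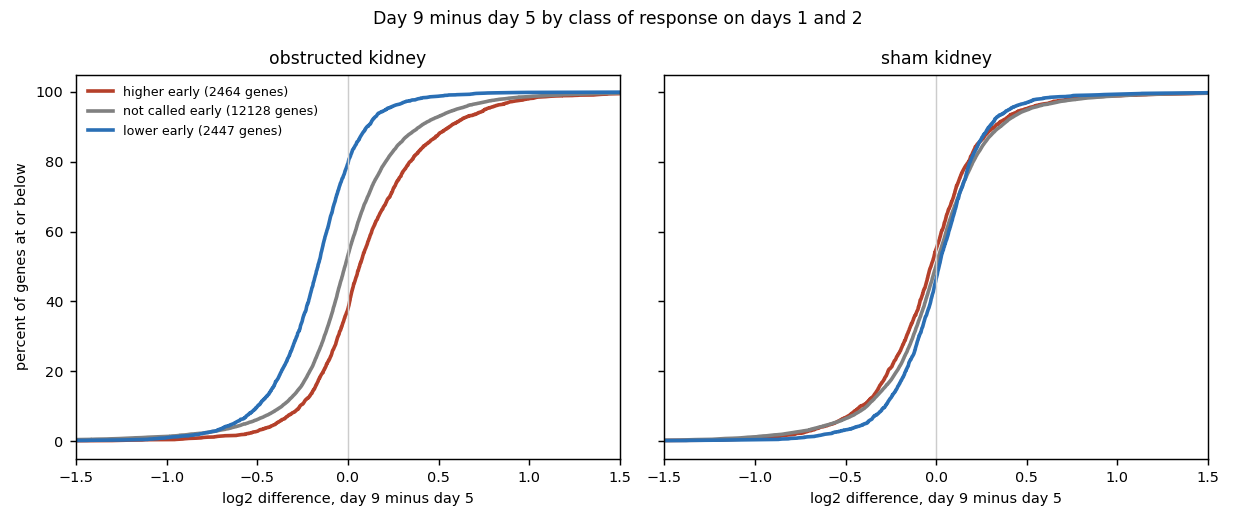
Cumulative percent of genes (vertical axis) against the log2 difference, day 9 minus day 5 (horizontal axis, drawn from -1.5 to 1.5), in obstructed (left) and sham kidney (right). Genes higher early (red) lie to the right of genes not called early (grey) and genes lower early (blue) to the left in obstructed kidney, with medians of 0.06, -0.02 and -0.17.

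The genes called between day 9 and day 5 were spread over these classes. Ltbp2 and Plekhs1 were already higher than sham on days 1 and 2, by 0.77 and 1.07. Cox5a, Aqp2, Gsta2, Cyp4a14 and Defb19 were already lower, by differences of -0.89, -0.50, -0.38, -0.45 and -0.87. The other 7 had not been called early, among them Cxcr4 at 0.31 (adjusted p = 0.0631, limma), Amer2 at 0.13 and Gpat3 at -0.04. For each of the 7 genes called at both times the late difference had the direction of the early one.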

How the data were processed

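Whole kidney RNA of obstructed and sham mice was measured on 22 2-colour arrays against a mouse universal reference, per the labels' protocols. The deposited values are log10 ratios of kidney (Cy5) over reference (Cy3), 1 per spot, from -3.11 to 4. That they are log10 and that exact zeros stand for spots without a measurement was read from the values, which were multiplied by 3.32 to the log2 scale. The sources used here do not give scanner software and normalization. Zeros were set to missing. Probes measured on at least 18 of 22 arrays and in every group were kept, each array's median was subtracted, and probes of 1 gene were averaged. Of the probes, 33653 had 1 gene symbol, 56 several and 11511 none, and the latter 2 kinds were not named.

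The arrays S03L and S03R, which share an animal number, were averaged, giving 21 replicates. limma 3.58.1 in R 4.3.3 (lmFit, eBayes) fitted 8 group means to 17039 genes, with Benjamini-Hochberg adjustment over all of them and a threshold of 0.05. An exact permutation test of 3 against 4 arrays cannot go below a two-sided p of 0.0571. The fitting scripts were tested on simulated data. Promoters were matched by symbol with Python 3.11.15.

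Named genes were up to 15 called rises and 15 called falls without overlap and with a gene-like name, in each list the 4 genes with the smallest p, 23 fixed genes, of which C3 was not analysed here, and the neighbouring tissue and sex genes. Genes marked as chosen after values were seen fall outside this rule. The comparison and its 43 lists, with 763 genes of which 693 were tested, were chosen with earlier results of these data known. Alternatives covered centring, zeros, filters, array weights, image folder, Xist, single probes and leaving out each replicate, where those of days 1 and 2 were added after seeing the data.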

Additional observations from a re-analysis of the deposited data

Results flagged for a closer look

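In the 4 obstructed day 9 arrays, 19 of 216 named genes had 1 array far from the other 3 by Dixon's criterion, which chance meets in about 1 in 20 groups. In 16 of the 19 this array was S09L. All values are log2 ratios of kidney over reference.

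The sex-linked genes set S09L apart most. Xist stood at -5.31 on S09L against 2.14 to 2.32 on the others, Eif2s3y at 1.60 against -8.63 to -8.07, and Uty at 2.05 against -3.03 to -2.86. Mitochondrial and tubule genes were higher on S09L: Ndufa9 stood at 0.68 against 0.20 to 0.25, Acaa1b at 3.24 against 2.60 to 2.68, Etfb at 1.99 against 1.40 to 1.44, Cox7b at 1.08 against 0.74 to 0.75, Cox8a at 1.33 against 0.73 to 0.80, and Slc3a1 at 6.26 against 5.73 to 5.80. Genes of the TGF-beta response and growth arrest were lower: Ccn2 stood at 1.35 against 3.31 to 3.67, Tgfb1 at 0.26 against 0.41 to 0.44, and Cdkn2b at -1.02 against -0.43 to -0.33. Nes, an intermediate filament gene, stood at 0.42 against 0.79 to 0.82. Leukocyte and interferon genes were higher, with Itgax at 1.72 against 1.33 to 1.35 and Gbp2 at 2.53 against 1.97 to 2.06. The mitotic kinase gene Aurka stood at -2.64 against -2.79 to -2.76.

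On other arrays, Amer2 stood at 2.47 on S34L against 2.76 to 2.82, Alas2, the heme synthesis enzyme of red cells, at 3.95 on S34L against 4.16, and Selplg at 0.21 on S36L against 0.49 to 0.54.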

How the results depend on the processing

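The count of 14 genes between obstructed day 9 and day 5 moved to 42 with quantile normalization, 924 with array weights (363 higher, 561 lower), 2 with the image folder as a fixed term, and 0 with a 2-fold minimum (24 at an unadjusted p under 0.05), with only the 7 obstructed arrays, with only image folder 2 (1057 unadjusted) and with the Xist pattern and folder together (1218 unadjusted). This last fit was added after seeing the data. Leaving out 1 replicate gave 0 to 432 genes, of which the replicates of days 1 and 2, added after seeing the data, gave 10 to 17. All 14 genes were among the 42, the 924 and the 432, whereas 8 of the 14 were among the 17 called without S19L. The other alternatives gave 11 to 21. The cause of these moves was not tested. For the difference from the sham change, leaving out 1 array gave 0 to 10 genes, with 6 without S10L, 8 without S09L and 10 without S33L, and every other alternative gave 0. For the sham days, only image folder 2 gave 43 and leaving out 1 array 0 to 50, with 50 without S22L, 12 without S33L and 8 without S10L. For the early response of 4911 genes, a 2-fold minimum gave 80, each probe by itself 8025, and leaving out 1 replicate 3531 (without S06R) to 5104. Leaving out those of days 5 and 9, which enter this difference only through the shared spread, gave 4650 to 5104. The early response could not be fitted with only the arrays of days 5 and 9. Over the named genes and alternatives, 7730 values kept their direction and side of the threshold, 183 lost their call and 151 gained one. In 69, from 30 genes, the difference changed sign, in each case for a gene that passed under neither setting. No paired analysis was possible because the groups compared share no replicate numbers. Spots listed at 0, 11.4% to 20.6% per obstructed array of these days, were left out, so genes of low signal are the least well measured.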

Other observations

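Antioxidant genes were divided. Of 19 genes of the NRF2 response, metallothioneins and oxidases 0 passed, 13 lay below 0 and the median difference was -0.43, or -0.28 without S31L. Gpx1 and Sod2, which remove peroxide and mitochondrial superoxide, had differences of -0.61 ± 0.19 and -0.46 ± 0.13, with S09L at 2.79 and 0.98, within the range of day 5. Cybb and Ncf4, subunits of the phagocyte oxidase in the same list, had differences of 0.82 ± 0.21 and 0.74 ± 0.20 with day 9 wholly above day 5. Of 9 genes of the unfolded protein response 8 lay below 0, with a median of -0.30, or -0.12 without S21L.

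Among genes just outside the threshold, named after their values were seen, Crip1 had a difference of 0.70 ± 0.13 (adjusted p = 0.0519, limma). Dcstamp, needed for fusion of osteoclasts and macrophages, had log2 ratios of -0.56, -0.54 and -0.38 at day 5 and of 0.69, 1.52, 0.85 and 0.71 at day 9, a difference of 1.43 ± 0.26 (adjusted p = 0.0522, limma). Slc38a3, a glutamine transporter of the proximal tubule, had a difference of -0.97 ± 0.18 (adjusted p = 0.0649, limma), and Npr3, the clearance receptor of natriuretic peptides, one of 0.76 ± 0.14 (adjusted p = 0.0653, limma).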
